A study of Mus musculus with 8 samples.

Results

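The immediate early genes described here are Fos, Fosb, Jun, Junb, Egr1, Egr2, Egr3, Arc, Npas4 and Nr4a1, 10 of the 55573 genes counted in each of 8 RNA-seq libraries, chosen by symbol from the Ensembl gene IDs. The libraries came from tdTomato-marked cells sorted from mouse cerebral cortex, with 2 libraries in each of 4 groups: KO at 18 months, WT at 18 months, KO at 6 months and WT at 6 months. All mice were on the C57BL/6 background and carried PV-Cre, a Cre recombinase under the parvalbumin locus, and a tdTomato reporter. KO mice carried Dnmt1 loxP2, in which Cre removes exons 4 and 5 of the DNA methyltransferase gene Dnmt1, and whose floxed line was made on a mixed B6;129Sv stock; WT mice carried wild-type Dnmt1. Per the design text the 2 libraries of a group are technical replicates, and cells were pooled from 6 WT and 6 KO mice, so the p-values below measure the spread between libraries and not between animals. The labels do not say whether these numbers of mice are per age. Before sorting, hemispheres taken under chloral hydrate anaesthesia were digested with trypsin and then with collagenase while warm, and triturated.

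Immediate early genes are transcribed within minutes of a stimulus without new protein synthesis, through factors such as CREB and the serum response factor that are already present on their promoters. In cortex they are the usual readout of recent neuronal firing, and they are also known to be induced in neurons and glia by warm enzymatic dissociation. Fos, Fosb, Jun and Junb encode subunits of the AP-1 transcription factor, Egr1, Egr2 and Egr3 encode zinc finger transcription factors, and Nr4a1 encodes an orphan nuclear receptor. Npas4 encodes a transcription factor that in neurons responds to calcium entry, and Arc encodes a cytoskeletal protein of dendrites that takes part in AMPA receptor endocytosis.

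The promoters of 6 of these genes are shown because the genes differed widely in how far they changed with age, from Npas4 with the largest fold change to Jun with none called in WT. Each window holds 250 bases before and 50 bases after the annotated start, 5′ to 3′ on the gene's strand, from RefSeq on GRCm38.p6. Capitals mark matches to TGACG, the core of the cAMP response element bound by CREB, on either strand, and to the TATA box TATAAA.
Npas4: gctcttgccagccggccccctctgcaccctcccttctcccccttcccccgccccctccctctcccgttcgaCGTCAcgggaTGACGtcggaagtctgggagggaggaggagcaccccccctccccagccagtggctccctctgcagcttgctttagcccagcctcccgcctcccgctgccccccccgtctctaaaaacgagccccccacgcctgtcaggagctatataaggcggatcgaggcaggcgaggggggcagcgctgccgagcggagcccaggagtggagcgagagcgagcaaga
Fosb: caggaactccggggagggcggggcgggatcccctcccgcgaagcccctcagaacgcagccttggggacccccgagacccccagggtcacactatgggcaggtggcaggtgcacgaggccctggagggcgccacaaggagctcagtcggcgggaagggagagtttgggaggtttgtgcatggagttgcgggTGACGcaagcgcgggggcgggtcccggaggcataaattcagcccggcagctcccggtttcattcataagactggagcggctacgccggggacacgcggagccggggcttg
Fos: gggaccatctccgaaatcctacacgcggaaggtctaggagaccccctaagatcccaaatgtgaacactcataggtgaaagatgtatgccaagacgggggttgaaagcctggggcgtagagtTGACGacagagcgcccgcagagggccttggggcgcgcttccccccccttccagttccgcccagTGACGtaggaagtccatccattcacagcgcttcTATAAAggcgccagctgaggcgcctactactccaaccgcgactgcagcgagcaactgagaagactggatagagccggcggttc
Junb: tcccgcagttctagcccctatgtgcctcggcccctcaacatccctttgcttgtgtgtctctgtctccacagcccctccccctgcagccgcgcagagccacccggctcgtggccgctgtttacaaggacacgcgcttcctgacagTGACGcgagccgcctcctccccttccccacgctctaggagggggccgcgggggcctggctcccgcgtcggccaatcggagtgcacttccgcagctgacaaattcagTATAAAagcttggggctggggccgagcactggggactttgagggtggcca
Nr4a1: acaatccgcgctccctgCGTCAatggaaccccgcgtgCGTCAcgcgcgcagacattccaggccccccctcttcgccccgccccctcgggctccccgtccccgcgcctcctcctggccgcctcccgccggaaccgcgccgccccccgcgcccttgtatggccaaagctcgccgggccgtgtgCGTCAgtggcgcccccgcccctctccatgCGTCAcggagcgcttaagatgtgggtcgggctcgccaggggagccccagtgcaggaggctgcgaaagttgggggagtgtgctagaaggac
Jun: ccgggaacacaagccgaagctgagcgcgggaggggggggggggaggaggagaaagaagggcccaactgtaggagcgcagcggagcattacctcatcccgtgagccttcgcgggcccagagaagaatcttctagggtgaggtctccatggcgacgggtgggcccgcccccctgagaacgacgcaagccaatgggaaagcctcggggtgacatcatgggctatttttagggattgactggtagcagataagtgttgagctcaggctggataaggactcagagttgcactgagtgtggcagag
The windows lie at chr19:4989922-4990221 on the minus strand for Npas4, chr7:19309996-19310295 on the minus strand for Fosb, chr12:85473640-85473939 on the plus strand for Fos, chr8:84978699-84978998 on the minus strand for Junb, chr15:101266596-101266895 on the plus strand for Nr4a1 and chr4:95052173-95052472 on the minus strand for Jun.

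Windows were found for 7 of the 10 genes; Egr1, Egr3 and Arc had none in the table. Of these 7 genes, 6 held TGACG on either strand, against 20.8% of all 32851 windows of the same length. Counted from the start, with the leftmost base of the match given, Npas4 had the core at -179 and -169, Fos at -129 and -66, Fosb at -60 and Junb at -106. Nr4a1 had 4 matches, at -233, -213, -69 and -40. In Egr2, which has 5 annotated windows, 3 overlapping windows held it. A gene was counted where any of its windows matched, while the shares are of single windows. The whole element TGACGTCA was in 0 of the 7 genes and 1.79% of all windows. TATAAA was in Fos, at -33, and in Junb, at 1, and in 13.6% of all windows. The CArG box bound by the serum response factor was found in Egr2 alone among the 7 genes and in 1.63% of all windows. EGR sites were searched as GCGTGGGCG, in 0 of the 7 genes and 0.612% of windows, and as its part GTGGGCG, in Egr2 alone and 7.97% of windows. The AP-1 site TGANTCA and the NR4A site AAAGGTCA were in 0 of the 7 genes, and in 7.81% and 1.51% of all windows. These are matches of letters and not measured binding sites. Variants of these letters, such as tgacatca in the Jun window, and bases outside the windows were not searched.

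Total counts ranged from 6008175 to 13551218 per library, and the libraries of WT at 6 months stood apart from the other groups across genes (CPM are counts scaled to library size; Pearson's r of log2 CPM 0.9 to 0.951, against 0.958 to 0.977 among libraries of the other 3 groups). Pvalb, the gene that defines the sorted cells and drives Cre, had 6 reads over the 8 libraries, and the 11 parvalbumin interneuron markers summed to 242.7 to 294.6 CPM. The 14 oligodendrocyte markers summed to 14380 to 42210 CPM, and the 10 pan-neuronal markers to 356.8 to 866.1 CPM, so the RNA was a mixture in which oligodendrocyte markers far outweighed neuronal ones. The sum of 8 pituitary markers, 3 of them with 0 reads, was higher in KO than in WT at both ages. At 6 months it was 233.6 and 237.5 CPM in KO against 7.24 and 9.75 CPM in WT. At 18 months it was 74 and 78.5 CPM in KO against 13.9 and 13.7 CPM in WT. KO at 6 months also stood out in 10 leukocyte markers (67.1 to 71 CPM, against 3.62 to 8.65 CPM in the other libraries). Dnmt1 averaged 75.4 and 80.9 CPM in KO and WT at 18 months, and 76.2 and 100.8 CPM in KO and WT at 6 months. Its log2 fold change between genotypes was -0.10 (edgeR adjusted p = 0.281) in the older mice and -0.40 (1e-04) in the younger ones, over reads of all exons and not of the 2 deleted ones. With plain library totals the median log2 change of all genes was 0.141 in place of 0 for KO against WT at 18 months, 0.098 in place of 0.003 for 18 against 6 months in KO, -0.139 in place of -0.04 for 18 against 6 months in WT and 0.208 in place of 0.015 for the interaction. The share of calls that were higher was then 69.8% in place of 45.8% for KO against WT at 18 months, 60.2% in place of 43.5% for 18 against 6 months in KO and 64.3% in place of 47.1% for the interaction.

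Levels of different genes were compared as RPKM, CPM divided by the exon length in kilobases. In KO at 18 months Arc was highest, at 23.8 and 26.4 RPKM in the 2 libraries, followed by Jun (15.3 and 18.3 RPKM) and Nr4a1 (14.2 and 16.7 RPKM), whose libraries overlapped. Fos (7.92 and 8.41 RPKM) and Junb (3.94 and 4.35 RPKM) came next, and Egr1, Fosb, Egr2, Egr3 and Npas4 all lay below 1 RPKM. In WT at 18 months Arc had 35.1 and 37.2 RPKM, Jun 24.6 and 25 RPKM and Nr4a1 18.9 and 19.4 RPKM, with no overlap between them, and Npas4 was again the lowest, at 0 and 0.0931 RPKM. At 6 months the top of the order was crowded. In KO of that age Arc (35.3 and 36.8 RPKM) stood above Nr4a1 (26.2 and 27 RPKM) and Jun (23.9 RPKM in each library), and in WT the libraries of Arc (28.4 and 29 RPKM), Nr4a1 (25.8 and 29.9 RPKM), Jun (25.1 and 28.7 RPKM) and Fos (22.2 and 29.4 RPKM) overlapped. Egr2 was lowest at 6 months, at 0.703 and 0.843 RPKM in KO and 0.574 and 1.6 RPKM in WT, and in KO the 2 libraries of Npas4 (0.895 and 0.914 RPKM) lay just above it.

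**Figure D1:**
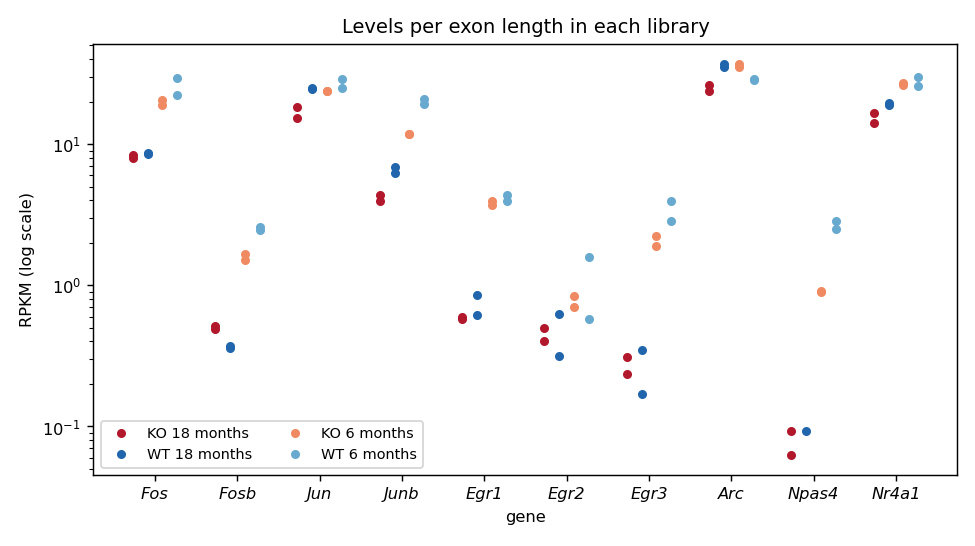
Level of each gene in RPKM on a log axis, 1 point per library, with colours for KO and WT at 18 and 6 months; the WT library of 18 months with 0 Npas4 reads cannot be drawn. Arc, Jun and Nr4a1 stay within 14.2 to 37.2 RPKM in every library, while Npas4 spans 0.0626 to 2.87 RPKM over the drawn ones.

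The largest differences were those with age, and they ran the same way in both genotypes for most of the genes. In KO, 9 of the 10 genes fell at 18 months against 6 months and 0 rose, where 17.9% of all 18205 tested genes were called lower (edgeR quasi-likelihood test, Benjamini-Hochberg adjusted p below 0.05; 31.7% called in either direction). In WT, 8 fell and Arc rose, where 30.8% of all tested genes were called lower and 28.2% higher (59% in either direction). The median log2 fold change of the 10 genes was -1.39 in KO and -1.60 in WT, against 0.003 and -0.04 over all tested genes. Npas4 passed the filter on low counts through its 6-month libraries alone; without it, 8 of 9 genes fell in KO, and 7 of 9 fell and 1 rose in WT. The age comparisons set different pools of animals against each other and share no library with one another, though each shares libraries with the genotype comparisons below.

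**Figure D2:**
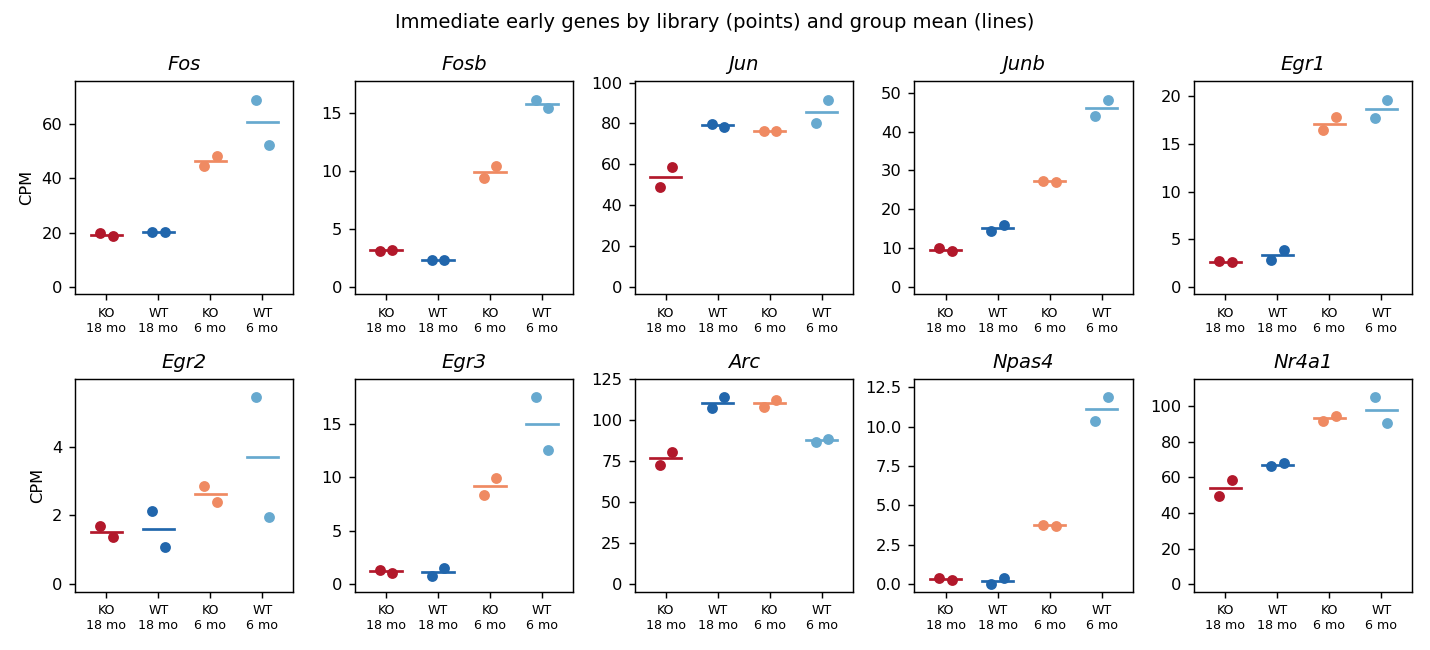
CPM of the 10 genes, 1 panel per gene with its own linear axis; points are libraries and lines are means of the 2 libraries. Fos, Fosb, Junb, Egr1, Egr3, Npas4 and Nr4a1 are lower in all 18-month libraries than in all 6-month libraries, while Arc is highest in WT at 18 months and KO at 6 months.

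Npas4 had the largest fold changes with age. It had 5 and 3 reads (0.382 and 0.259 CPM) in KO at 18 months, against 33 and 31 reads (3.78 and 3.7 CPM) in KO at 6 months. In WT it had 0 and 5 reads (0 and 0.385 CPM) at 18 months, against 63 and 73 reads (10.4 and 11.9 CPM) at 6 months. No 18-month library reached the level of any 6-month library. From the summed reads the level was 11.6-fold lower at 18 months in KO (95% interval 5.52 to 27.9) and 46.6-fold lower in WT (19.5 to 145.9), intervals that cover counting error only. The edgeR log2 fold changes were -3.48 (SE 0.468) in KO and -5.48 (SE 0.443) in WT. Because Npas4 passed the filter on low counts through its 6-month libraries alone, its p-values with age are not given. Without WT replicate 2 at 18 months only a library with 0 reads remains in that group, and the WT value became -9.61; without replicate 1 of that group it was -4.79.

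Of the EGR genes, Egr3 and Egr1 fell in both genotypes, and Egr2 passed in WT but not in KO. Egr3 had 1.37 and 1.03 CPM in KO at 18 months against 8.36 and 9.91 CPM in KO at 6 months, and 0.752 and 1.54 CPM in WT at 18 months against 17.4 and 12.5 CPM in WT at 6 months. It fell 7.45-fold in KO (log2 fold change -2.90, SE 0.294, edgeR adjusted p = 5.75e-08) and 12-fold in WT (-3.59, SE 0.293, 1.64e-10), where the value was -4.29 without WT replicate 2 at 18 months. Egr1 had 2.67 and 2.59 CPM in KO at 18 months against 16.5 and 17.8 CPM in KO at 6 months, and 2.76 and 3.85 CPM in WT at 18 months against 17.8 and 19.7 CPM in WT at 6 months. It fell 6.48-fold in KO (-2.70, SE 0.195, 2.12e-10) and 5.47-fold in WT (-2.45, SE 0.199, 1.48e-10), with every 18-month library below every 6-month library for both genes. Egr2, which is also known as a regulator of Schwann cell myelination, was near the limit of this depth with 159 reads in all. It had 22 and 16 reads in KO at 18 months against 25 and 20 reads in KO at 6 months, and 17 and 14 reads in WT at 18 months against 33 and 12 reads in WT at 6 months. Its WT libraries overlapped. The log2 fold change was -0.77 in KO (edgeR adjusted p = 0.177) and -1.28 in WT (0.0157), and the WT call was lost without WT replicate 1 at 6 months (-0.37, 0.591), without WT replicate 2 at 18 months (-0.78, 0.216) and with DESeq2 (adjusted p = 0.108).

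Among the AP-1 subunits, Fosb had the largest fold change with age, followed by Junb and Fos, and Jun the smallest. Fosb had 3.05 and 3.19 CPM in KO at 18 months against 9.39 and 10.4 CPM in KO at 6 months (3.16-fold lower, edgeR adjusted p = 1.21e-06), and 2.26 and 2.31 CPM in WT at 18 months against 16.1 and 15.4 CPM in WT at 6 months (6.86-fold lower, 8.81e-11). Fos had 19.8 and 18.6 CPM in KO at 18 months against 44.5 and 48.2 CPM in KO at 6 months (2.41-fold lower, 1.5e-08), and 20.3 and 20.2 CPM in WT at 18 months against 69.1 and 52.3 CPM in WT at 6 months (3-fold lower, 5.33e-11). Junb had 10 and 9.06 CPM in KO at 18 months against 27.3 and 27.1 CPM in KO at 6 months (2.84-fold lower, 4.06e-09), and 14.3 and 15.8 CPM in WT at 18 months against 44.1 and 48.2 CPM in WT at 6 months (3.05-fold lower, 3.91e-11). For these 3 genes all 18-month libraries lay below all 6-month libraries. Jun had 48.7 and 58.5 CPM in KO at 18 months against 76.2 CPM in each KO library at 6 months, and fell 1.42-fold (log2 fold change -0.51, SE 0.0872, edgeR adjusted p = 7.79e-05). In WT it had 79.8 and 78.3 CPM at 18 months against 80 and 91.6 CPM at 6 months, a log2 fold change of -0.12 (95% interval -0.30 to 0.06, adjusted p = 0.246) that was called only with plain library totals (-0.22, 0.0352). Junb shares 173 exon bases with Prdx2 and Jun shares 232 with Junos, both on the opposite strand, and the sources used here do not give the strand setting of the counting. Junos had 1.63 to 2.41 CPM over the 8 libraries and was called in 0 of the 5 comparisons. Prdx2 averaged 38.7 and 45.1 CPM in KO and WT at 18 months and 40.3 and 58.7 CPM in KO and WT at 6 months. These means were lower in KO at both ages, as were those of Junb. Whether reads of Prdx2 entered the Junb counts was not tested.

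Nr4a1 and Arc, abundant like Jun, changed with age by less than Fos, Fosb, Junb, Egr1, Egr3 and Npas4. Nr4a1 had 49.9 and 58.7 CPM in KO at 18 months against 91.8 and 94.6 CPM in KO at 6 months (1.72-fold lower, edgeR adjusted p = 1.56e-07). In WT it had 66.5 and 68.1 CPM at 18 months against 105 and 90.5 CPM at 6 months (1.45-fold lower, 1.09e-05). Arc parted from the other genes: it had 72.6 and 80.7 CPM in KO at 18 months against 107.9 and 112.5 CPM in KO at 6 months, and fell 1.44-fold (4.07e-06), but in WT it had 107.2 and 113.8 CPM at 18 months against 86.8 and 88.7 CPM at 6 months, and rose 1.26-fold (4.43e-04). Both Arc calls held in all alternatives run, as did its direction.

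**Figure D3:**
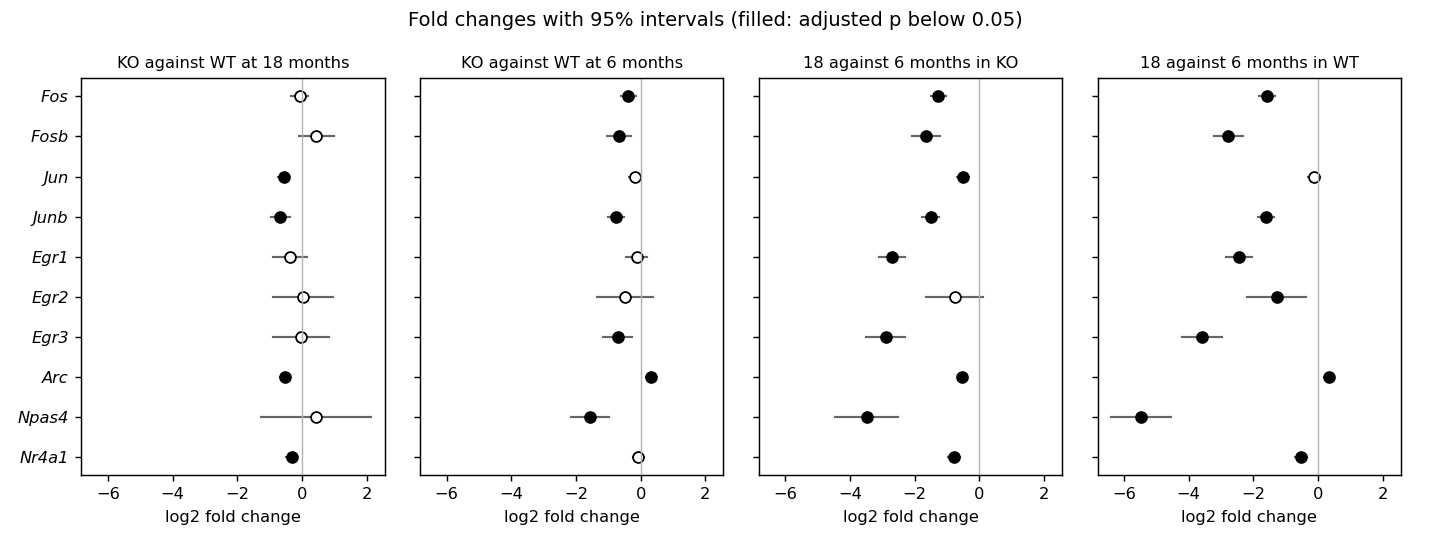
log2 fold changes of the 10 genes in the 4 pairwise comparisons, with KO against WT at 18 and at 6 months in the left panels and 18 against 6 months in KO and in WT in the right panels; bars are 95% intervals, and filled points passed an adjusted p of 0.05. Npas4 reaches -5.48 in WT and -3.48 in KO with age, while Arc is the only gene right of 0 with age in WT.

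Several marker lists fell with age too. Of all tested genes, 17.9% were called lower and 13.8% higher in KO, and 30.8% and 28.2% in WT. Of 10 pan-neuronal markers 9 fell and 0 rose in KO, and 8 fell and 1 rose in WT, and their sum was 356.8 to 366.8 CPM in KO at 18 months and 360.9 to 364.4 CPM in WT at 18 months, against 503 to 535 CPM in KO at 6 months and 834.1 to 866.1 CPM in WT at 6 months. Their median log2 fold change was -1.85 in KO and -1.49 in WT, against -1.39 and -1.60 for the 10 immediate early genes. Markers of excitatory neurons, of which 9 of 10 tested fell in KO and 8 of 10 in WT, summed to 62.2 to 70.4 CPM in KO and 91.3 to 92.7 CPM in WT at 18 months, against 232.1 to 246.2 CPM in KO and 262.5 CPM in each WT library at 6 months. Each of these markers had reads. Of 9 GABA neuron markers tested, 6 fell and 1 rose in KO, and 9 fell and 0 rose in WT, but their sum in KO was higher at 18 months (839.5 and 864.6 CPM) than at 6 months (753.3 and 778.1 CPM), and in WT it was lower (596.3 and 644.4 CPM at 18 months against 1288 and 1249 CPM at 6 months). Of 10 parvalbumin interneuron markers tested, 5 fell and 1 rose in KO, and 6 fell and 2 rose in WT, with mean sums of 246.2 and 258.2 CPM in KO and WT at 18 months and 251.7 and 292 CPM in KO and WT at 6 months. Lists of other cells fell in both genotypes as well. Of 11 pericyte and smooth muscle markers 7 fell in KO and 11 in WT, and of 10 oligodendrocyte precursor markers 7 fell in KO, and 9 fell and 1 rose in WT. Of 13 microglial markers 12 fell in KO, and in WT 4 rose and 0 fell. All 13 astrocyte markers fell and all 14 oligodendrocyte markers rose with age in WT, while in KO 11 astrocyte markers rose and 7 oligodendrocyte markers fell. Whether single markers passed the filter on low counts through their 6-month libraries alone was not checked, so the counts and medians of these lists can in part reflect the filter. In bulk RNA, fewer cells of a type and less RNA per cell cannot be told apart, and the part of these cell types in the age differences was not tested.

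**Figure D4:**
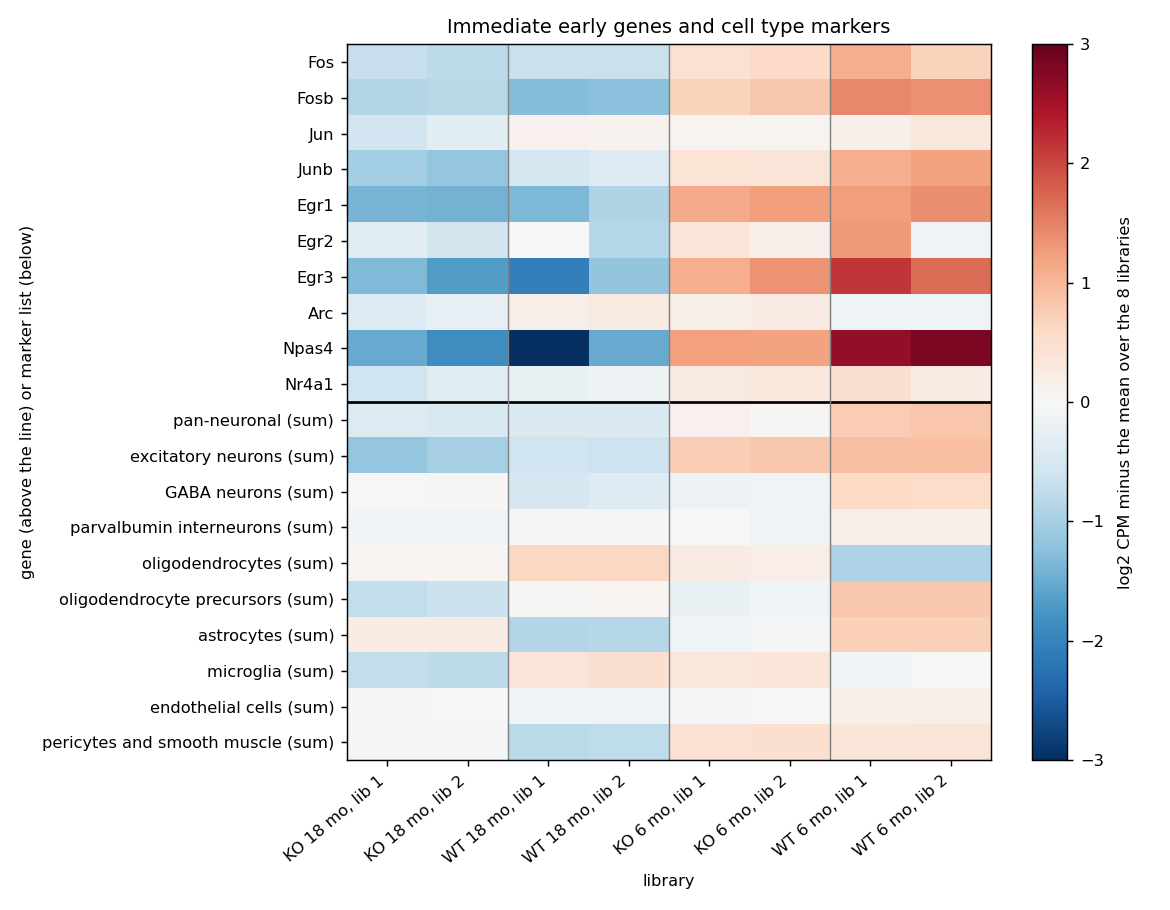
log2 CPM of each gene (above the line) and of the summed markers of 10 cell types (below) in the 8 libraries, each centred on its own mean; red is above and blue below that mean. Egr1, Egr3, Npas4 and Fosb show the same split between 18 and 6 months as the excitatory neuron sum, while Arc and Jun stay near 0 in most libraries.

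KO was compared with WT at 6 months first. Of the 10 genes 5 fell and Arc rose, where 19.6% of all tested genes were called lower and 19.2% higher (38.8% in either direction), and the median log2 fold change was -0.44 against -0.005 over all tested genes. Without Npas4, 4 of 9 fell and 1 rose. Npas4, with 3.78 and 3.7 CPM in KO against 10.4 and 11.9 CPM in WT, fell 2.97-fold (log2 fold change -1.57, SE 0.282, edgeR adjusted p = 8.47e-05). Junb, with 27.3 and 27.1 CPM in KO against 44.1 and 48.2 CPM in WT, fell 1.7-fold (-0.77, SE 0.115, 8.31e-06). Arc, with 107.9 and 112.5 CPM in KO against 86.8 and 88.7 CPM in WT, rose 1.26-fold (0.33, SE 0.0753, 0.00114). These 3 calls held in every alternative run. The other 3 calls were less firm, although both KO libraries lay below both WT libraries in each. Fosb had a log2 fold change of -0.67 (adjusted p = 0.00383), lost with DESeq2 (0.068) and without KO replicate 1 (0.0548). Egr3 had -0.71 (0.0109), lost with DESeq2 (0.104), without KO replicate 1 (0.122) and without WT replicate 1 (-0.45, 0.18). Fos had -0.39 (0.00777), lost with DESeq2 (0.0513), without KO replicate 1 (0.0985) and without WT replicate 1 (-0.17, 0.301), the library with 69.1 CPM. DESeq2 and the fit without KO replicate 1 each called 3 of the 10 genes. Jun (log2 fold change -0.17, 95% interval -0.36 to 0.01), Egr1 (-0.13, -0.46 to 0.20), Egr2 (-0.48, -1.34 to 0.37) and Nr4a1 (-0.07, -0.25 to 0.11) did not pass, though Jun was called with plain library totals (adjusted p = 0.0494) and Egr2 without WT replicate 2 (-1.04, 0.0458). Markers moved here too: of 10 pan-neuronal markers 5 fell and 0 rose, of 9 GABA neuron markers tested 8 fell and 0 rose, all 14 oligodendrocyte markers rose and all 13 astrocyte markers fell. Their part in these differences was not tested, and whether single markers passed the filter through WT at 6 months alone was not checked.

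At 18 months Junb, Jun, Arc and Nr4a1 fell in KO against WT. Of the 10 genes these 4 fell and 0 rose, where 17.4% of all tested genes were called lower and 14.7% higher (32.1% in either direction), with a median log2 fold change of -0.19 (-0.32 over the 9 genes without Npas4) against 0 over all tested genes. Junb, with 10 and 9.06 CPM in KO against 14.3 and 15.8 CPM in WT, fell 1.59-fold (log2 fold change -0.67, SE 0.138, edgeR adjusted p = 5.54e-04). Jun, with 48.7 and 58.5 CPM in KO against 79.8 and 78.3 CPM in WT, fell 1.48-fold (-0.56, SE 0.0855, 1.5e-05). Arc, with 72.6 and 80.7 CPM in KO against 107.2 and 113.8 CPM in WT, fell 1.45-fold (-0.53, SE 0.0701, 2.06e-06). In these 3 genes both KO libraries lay below both WT libraries, and the calls held in every alternative run. Nr4a1 fell 1.24-fold (-0.32, SE 0.0859, 0.00624), a call lost without KO replicate 1 (-0.20, 0.158), without WT replicate 2 (0.0939) and with plain library totals (-0.17, 0.124). The other 6 genes did not pass: Fos had a log2 fold change of -0.07 (95% interval -0.34 to 0.19), Fosb 0.45 (-0.10 to 0.99), Egr1 -0.37 (-0.90 to 0.15), Egr2 0.03 (-0.91 to 0.97), Egr3 -0.02 (-0.89 to 0.85) and Npas4 0.43 (-1.27 to 2.13). Npas4 had 8 reads in KO and 5 in WT at this age, and its interval leaves differences of over 2-fold in either direction undetectable at this depth. Of the marker lists, 6 of 10 pan-neuronal genes fell and 1 rose, 12 of 13 microglial genes fell, all 14 oligodendrocyte markers fell and all 13 astrocyte markers rose; their part in these differences was not tested.

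Whether the genotype difference depended on age was tested with the interaction, in which the genotype difference at the younger age is subtracted from the one at the older age, on the log2 scale. It was positive and called for 1 of the 10 genes and negative and called for 2, where 18.4% and 20.7% of all tested genes were (39.1% in either direction). Arc had -0.86 (SE 0.103, edgeR adjusted p = 2.44e-07), falling in KO at 18 months and rising in KO at 6 months. Jun had -0.39 (SE 0.124, 0.0145), with KO against WT at -0.56 at 18 months and -0.17 at 6 months. Fosb had 1.12 (SE 0.316, 0.00649), with 0.45 at 18 months and -0.67 at 6 months. The Jun call was lost without KO replicate 1 at 18 months (0.109), without WT replicate 1 at 6 months (0.0755) and with plain library totals (-0.20, 0.222), and the Fosb call with DESeq2 (0.0586). Junb, which fell in KO at both ages, had 0.10 (95% interval -0.27 to 0.47). Npas4 had 2.00 (0.15 to 3.84, adjusted p = 0.0806), a value that was called, at 6.14 (0.0115), without WT replicate 2 at 18 months, when that group's remaining library had 0 reads. Fos (0.32, adjusted p = 0.154) was called without WT replicate 2 at 6 months (0.50, 0.0167) and with plain library totals (0.51, 0.0184). Nr4a1 (-0.25, 0.114) was called at -0.37 without KO replicate 2 of 18 months (0.0249), and also without WT replicate 1 of 6 months (0.0295).

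Relatives of these genes were followed from 7 lists chosen by role. Their counts stand against the shares of all tested genes given above: 17.9% called lower and 13.8% higher with age in KO, 30.8% and 28.2% in WT. In the list of other immediate early genes, with 32 members tested, 19 fell and 2 rose with age in KO, and 23 fell and 4 rose in WT, with medians of -0.51 and -0.75. Sik1, a salt-inducible kinase, fell 2.28-fold in KO to 21.2 CPM at 18 months, against 48.3 CPM at 6 months (edgeR adjusted p = 3.39e-09). The matricellular gene Ccn1 fell 2.61-fold in WT, to 23.2 against 60.6 CPM (1.56e-11). Rhob, a small GTPase, went against this group in WT: it rose 1.99-fold with age in WT, with 776.5 CPM at 18 months against 390.7 CPM at 6 months (1.04e-13), and fell 1.38-fold in KO, with 497.2 against 686.1 CPM (3.66e-07). The interaction was -1.46 (1.66e-13). Its 4 group means had the same order as the oligodendrocyte marker sums, highest in WT at 18 months and lowest in WT at 6 months, and the part of those cells in it was not tested.

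The list of feedback inhibitors holds Dusp, Spry and Spred genes, which restrain kinase pathways that induce immediate early genes, and also Zfp36 and its relatives. Of 12 tested, 6 fell and 2 rose with age in KO, and 9 fell and 2 rose in WT. Dusp6, a phosphatase of ERK kinases, fell 2.84-fold with age in WT, with 26.5 CPM at 18 months against 74.8 CPM at 6 months (edgeR adjusted p = 2.42e-12). It rose 1.88-fold in KO at 18 months (49.6 against 26.5 CPM, 6.46e-08) and fell 1.9-fold in KO at 6 months (39.4 against 74.8 CPM, 2.41e-08). The genotype difference of Dusp6 had the sign of the astrocyte markers at each age, and the part of those cells in it was not tested. Dusp5, a nuclear ERK phosphatase, was lower in KO at 6 months, with 11 reads against 63 in WT (0.642 against 5.16 CPM), and passed the filter on low counts through WT at 6 months alone. In the heat shock and dissociation list, of 19 genes 7 fell and 1 rose in KO, and 7 fell and 7 rose in WT, with medians of -0.20 and 0.08; the WT counts are near those shares. Hspa1a, an inducible heat shock protein, fell 2.85-fold in WT, to 8.39 against 23.7 CPM (3.05e-08). The HSP90 chaperone genes Hsp90ab1 (1.82-fold, 1006 against 553.7 CPM, 1.95e-12) and Hsp90aa1 (1.78-fold, 209.5 against 117.7 CPM, 6.54e-11) rose in WT.

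Egr4, the remaining EGR gene, had 7 reads in KO at 18 months against 54 in KO at 6 months (0.292 against 3.16 CPM), and 4 in WT at 18 months against 49 in WT at 6 months (0.202 against 4.01 CPM); it passed the filter through its 6-month libraries alone. The EGR co-repressor Nab2 fell 2.01-fold in KO (edgeR adjusted p = 0.00557) and 4.99-fold in WT (3.46e-07). Of the 6 EGR and NR4A relatives tested, 4 fell and 0 rose in KO and 4 fell and 1 rose in WT. Egr4 is among those that fell in both genotypes, and counts without it were not made. Fosl2, a FOS relative, fell 2.68-fold in KO (14.8 against 39.7 CPM, 3.29e-09) and 2.49-fold in WT (20.2 against 50.7 CPM, 1.15e-09). Jund, the JUN gene that is not induced as an early gene, rose 1.68-fold in KO at 6 months (53.3 against 31.8 CPM, 4.56e-05) and fell 1.75-fold in KO at 18 months (28.1 against 48.9 CPM, 6.75e-06). Of 9 AP-1 and ATF relatives tested, 3 fell and 0 rose with age in KO, and 3 fell and 2 rose in WT.

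The late activity genes, which in neurons follow the early ones, had the lowest median with age of the 7 related lists. Of 13 tested, 10 fell and 0 rose in KO, and 12 fell and 0 rose in WT, with medians of -1.55 and -2.71. Kcnj4 and Vgf, among these 13, each reached the CPM cutoff of the filter in 1 of the 4 libraries at 18 months. They passed it through their 6-month libraries, and counts without them were not made. Genes of this list that are not named here were not checked for this. Its counts and medians can therefore in part reflect the filter. The neuropeptide gene Penk fell 10.1-fold in KO (0.765 against 7.92 CPM, edgeR adjusted p = 7.53e-09) and Vgf, a secreted neuronal peptide precursor, had 13 reads in KO at 18 months against 101 in KO at 6 months (0.516 against 5.92 CPM), and 1 of the 4 libraries at 18 months reached the CPM cutoff of the filter. The granin Scg2 fell 22.6-fold in WT (2.93 against 68 CPM, 6.19e-17). At 6 months 9 of these 13 genes fell in KO against WT and 0 rose, where 19.6% of all tested genes were called lower and 19.2% higher. Scg2 was at 12 against 68 CPM (5.65-fold lower, 5.05e-13) and the potassium channel Kcnj4 at 3.75 against 34.8 CPM (9.28-fold lower, 4.55e-11). At 18 months 2 of the 13 rose and 2 fell in KO against WT, near the 14.7% called higher and 17.4% called lower among all tested genes. Upstream factors were split: with age 8 fell and 8 rose in KO, and 12 fell and 8 rose in WT, of 29 tested. The calcium-dependent kinase Camk2a, also an excitatory neuron marker, fell 6.68-fold in KO (17.3 against 115.1 CPM, 9.58e-16) and 3.91-fold in WT (35.3 against 136.3 CPM, 5.82e-15), the serum response factor gene Srf fell 1.98-fold in KO (18.9 against 37.5 CPM, 8.03e-07), and the ERK kinase gene Mapk3 rose 2.17-fold in WT (139.5 against 64.4 CPM, 5.94e-10).

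**Figure D5:**
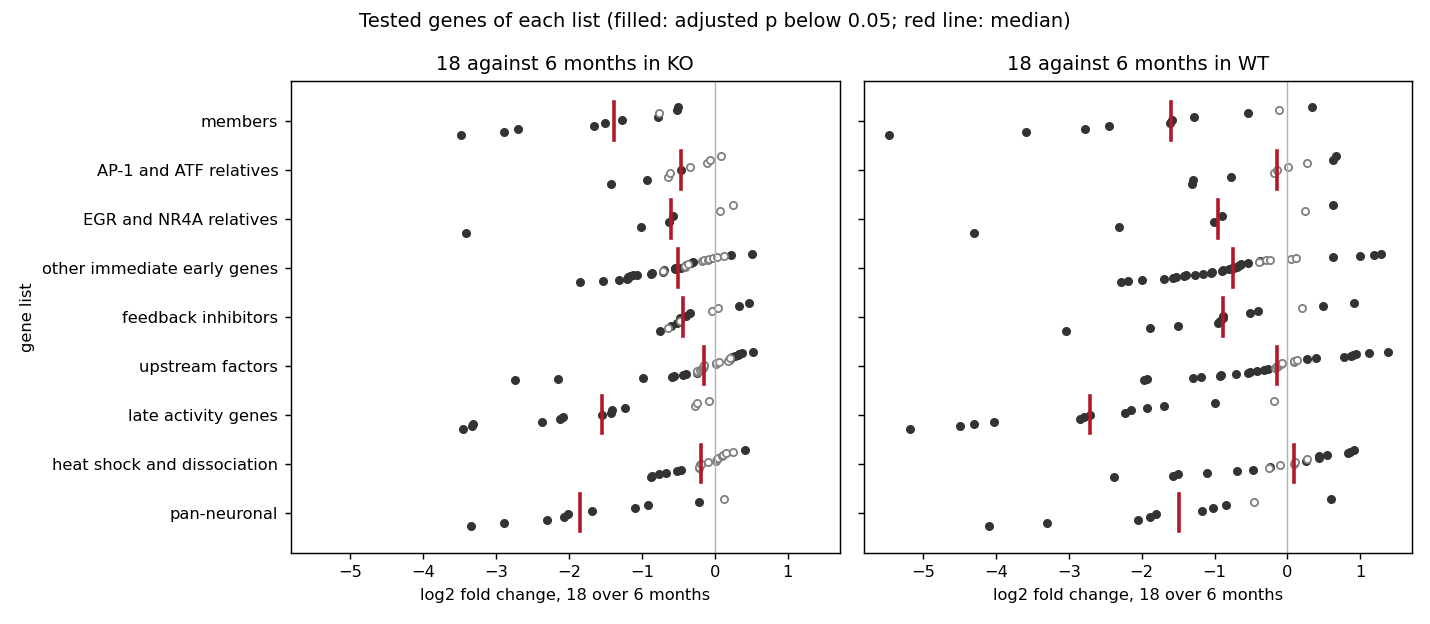
log2 fold changes at 18 against 6 months in KO (left) and WT (right) for the tested genes of each list, 1 point per gene, filled where adjusted p was below 0.05, with the list's median as a red line and pan-neuronal markers in the bottom row. The 10 immediate early genes (top row) have medians of -1.39 and -1.60, between those of the late activity genes and those of the upstream factors near 0.

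The genes whose levels ran most like each immediate early gene were found by the root mean square difference of log2 CPM over the 8 libraries, each gene centred on its own mean. Tested genes outside the group of 10 with a mean of at least 5 CPM were searched. Genes with no symbol or with a clone, Gm, Rik or pseudogene name were left out. For Npas4, whose log2 CPM spanned 5.82, they were the ephrin receptor gene Epha6 (0.43) and Rbfox3, which encodes the neuronal nuclear protein NeuN (0.61). Rbfox3 had 1.35 and 2.34 CPM in KO and WT at 18 months and 13.7 and 40.8 CPM in KO and WT at 6 months. For Egr3 they were the neuronal transcription factor Bcl11a (0.28) and Iqsec3 (0.34), and for Egr1 the long non-coding RNA Snhg11 (0.21) and the calcium-binding protein gene Cabp1 (0.23). Fos was nearest to the phosphodiesterase gene Pde10a and to Rnf150 (0.11 each), Fosb to Fras1 (0.12) and Pdlim7 (0.14), and Junb to Arpp21 (0.09) and Pdzd4 (0.10). Jun was nearest to Gfra1 (0.07) and Ttbk1 (0.08), Nr4a1 to the kinase gene Mknk2 (0.06) and Cep89 (0.08), and Arc to Mical3 and Emc10 (0.05 each). Egr2, with few reads, had no searched gene nearer than Ggnbp1 (0.27) and Zkscan16 (0.29). Within the group, Jun and Arc differed by 0.21 and Jun and Nr4a1 by 0.22, Fos and Junb by 0.29 and Egr1 and Fosb by 0.39, whereas Arc and Npas4 differed by 2.10.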

How the data were processed

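RNA-seq was made from cells sorted from cortex, as 8 libraries in 4 groups of 2. The authors deposited whole-number counts per Ensembl gene, not normalized; per the submitters' processing notes, which name mm10, the tools were featureCounts 1.5.0-p1, STAR 2.5.2a and CASAVA 1.8.2. The sources used here do not give the strand setting, the treatment of reads with several matches or the annotation release.

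Symbols, exon lengths and coordinates came from GENCODE on GRCm38 and covered 55394 of 55573 IDs. Genes passing edgeR's filterByExpr (minimum count 10) numbered 18205. Counts were fitted with edgeR 4.0.16 in R 4.3.3 (TMM scaling, 1 model over the 4 groups, quasi-likelihood F test), with Benjamini-Hochberg adjustment over all tested genes and a threshold of 0.05. The adjusted p-values of all named genes come from this fit. CPM use TMM-scaled totals, and RPKM divide these by exon length. The fit was tested on simulated counts. The 2 libraries of a group differed by more than counting noise (chi-square per gene 2.61 to 4.86) and were kept as 2. Intervals on reads cover counting error only.

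All 10 genes were described. From each related list, up to 3 called genes with the smallest p per comparison could be named, and for likeness the 2 nearest genes. The genes and lists were chosen with earlier results of these data known. Alternatives were DESeq2 1.42.0, other scalings, no filter, fewer groups, a replicate block, leaving out Gm26917 and mitochondrially encoded genes, and leaving out each library. The gene Gm26917 held 9.97% and 9.29% of counts in WT at 6 months, against 1.67% to 4.98% in the other libraries. Mitochondrially encoded genes held from 1.16% (WT at 6 months) to 7.19% (KO at 6 months). Replicate numbers do not pair the samples: the design calls them technical replicates, and same-numbered libraries' deviations correlated at 0 to 0.076.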

Additional observations from a re-analysis of the deposited data

Results flagged for a closer look

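For 3 of the 10 genes the difference between KO and WT was not the same at the 2 ages by the interaction test of edgeR, where 39.1% of all tested genes were called. Arc had a difference of -0.86 on the log2 scale, KO against WT at 18 months minus KO against WT at 6 months. It was lower in both KO libraries than in both WT libraries at 18 months and higher in both at 6 months. Jun had -0.39 and Fosb had 1.12, calls that were lost for Jun without either of 2 libraries and with plain library totals, and for Fosb with DESeq2.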

How the results depend on the processing

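Over all alternatives, single genes kept direction and call in 539 cases, gained a call in 8, lost one in 18 and turned in 14. For KO against WT at 18 months the sign turned in these cases: Egr2 was -0.043 with DESeq2 and -0.036 with the replicate block, Egr3 0.12 with plain library totals and 0.002 with no filter, and Fos 0.067 with plain totals, and in others without 1 library. Leaving out 1 library gave -0.45 to 0.52 for Egr2, -0.33 to 0.70 for Egr3 and -0.23 to 4.59 for Npas4 in that comparison, -1.04 to 0.44 for Egr2 and -0.17 to 0.052 for Nr4a1 in KO against WT at 6 months, and -0.44 to 0.059 for Egr1 and -0.40 to 1.07 for Egr2 in the interaction. Genes called numbered 3846 with DESeq2 and 3737 to 4814 without 1 library for KO against WT at 18 months (5844 as reported), and 3449 and 3255 to 4996 for 18 against 6 months in KO (5775). Of the 10 genes, KO against WT at 6 months called 3 with DESeq2 and 3 to 7 without 1 library (6 as reported). The cause was not tested. With 250 bases before the start, TATAAA was in 1 gene in place of 2, by the shorter window. The replicate block called 6322 and 7421 genes for KO against WT at 18 and 6 months, and changed no call of the 10 genes. Few reads limit Npas4, Egr2 and Egr3 at 18 months.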
